A study of Mus musculus with 12 samples.

Results

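The Ly6 genes and 4 further genes that mark Ly6C-high monocytes were followed in cells sorted from the mouse heart before and after injury. The 9 genes were taken by symbol from the 14460 genes of the deposited table: Ly6c1, Ly6c2, Ly6a, Ly6e and Ly6i of the Ly6 family, and Plac8, Ifitm3, Ifitm6 and Hp. All 9 passed the filter on low values, as did 12879 genes in all. The cells were GFP-positive cells from hearts of Cx3cr1GFP/+ mice aged 2 to 3 months, in which GFP takes the place of 1 copy of Cx3cr1, the gene of a chemokine receptor, and labels monocytes and macrophages. Hearts that had no surgery gave the day 0 cells, and hearts 3, 7 and 30 days after cryoinjury, a model of myocardial infarction in which the heart wall is frozen, gave the others. The sorting gate was Ly6clow/CX3CR1high at days 0, 7 and 30 and Ly6chigh/CX3CR1low at day 3. Time after injury and gate therefore cannot be told apart in any comparison with day 3. Ly6chigh cells of the other days and Ly6clow cells of day 3 were not analysed here. There were 3 libraries a group, which the labels describe as independent biological replicates.

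Ly6 proteins are small cell-surface proteins with a three-finger fold held together by disulfide bonds, and most are attached to the membrane by a glycosylphosphatidylinositol anchor. Ly6C, the antigen of the gate, is made from the neighbouring genes Ly6c1 and Ly6c2. In the mouse it divides blood monocytes into an inflammatory Ly6C-high class, which enters injured tissue through the chemokine receptor CCR2, and a patrolling Ly6C-low class rich in CX3CR1. In the injured heart, recruited Ly6C-high monocytes arrive early and can become macrophages that have lost Ly6C. Several of the other genes, among them Ly6a, Ly6e and Ifitm3, are induced by interferons.

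Levels are given as signal, the deposited normalised read count on a linear scale, and changes as the log2 fold change of signal + 1 with its standard error, n = 3 against 3. The standard error comes from the spread pooled over all 12 libraries. A call means a Benjamini-Hochberg adjusted p under 0.05 over all genes tested with limma. Ly6c1 and Ly6c2 encode the antigen that was sorted on, so their difference from day 3 is given as a description, with no test, and the other 7 genes were counted there.

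Reads recovered from the deposited signals, summed over the 14460 genes, came to 5828904 to 13199576 per library. Cx3cr1 had a signal of 145 to 157 at day 0, 142 to 204 at day 7 and 126 to 134 at day 30, against 33.8 to 44.0 at day 3. Ccr2 had 1404 to 1728 at day 3 and 192 to 713 in the 9 other libraries. Cx3cr1 was low and Ccr2 high in the cells labelled Ly6chigh/CX3CR1low. CX3CR1 is part of the gate, so the level of Cx3cr1 describes the sort. The first day 0 library stood apart from the other day 0 libraries in several of the genes below, with low endothelial and T and NK cell marker sums (59.1 against 298 and 234, and 47.6 against 230 and 158). The second day 7 library differed from the other 2 by a chi-square of 94.5 and 107 per gene, where those differed by 21.4, and it had a fibroblast marker sum of 2498 against 925 and 678. The 3 day 30 libraries differed from each other by a chi-square of 2.24 to 2.95 per gene, against 6.24 to 107 in the other groups, which is more than sampling noise but less than replicates elsewhere. Where leaving out these libraries changes a result for the 9 genes, it is given with and without them, in part as counts or ranges. The gene lists and the other named genes are given with all 12 libraries only.

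The 5 Ly6 genes lie together on chromosome 15 and the Ifitm pair on chromosome 7. In GRCm38 coordinates with GENCODE M21 annotation, Ly6e occupies 74955051 to 74959905 on the plus strand. The other Ly6 genes follow on the minus strand: Ly6i at 74979534 to 74983430, Ly6a at 74994877 to 74998031, Ly6c1 at 75044018 to 75048830 and Ly6c2 at 75108158 to 75111970. From Ly6e to Ly6c2 the stretch spans 157 kb, and 59.3 kb separate Ly6c1 from Ly6c2. Ifitm3 (chromosome 7, 141009586 to 141010770) and Ifitm6 (141015699 to 141017924) are 4.93 kb apart on the minus strand. Plac8 lies on chromosome 5 (100553725 to 100572245) and Hp on chromosome 8 (109575128 to 109579172), both on the minus strand. All 9 are annotated as protein coding.

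Both Ly6C genes are close copies, which bears on how their reads could be assigned. Their coding sequences agreed at 356 of 393 aligned bases (90.6%). Of the 50-base windows of the annotated Ly6c1 transcripts, 578 of 1764 (32.8%) also occurred in another gene, 379 of them in Ly6c2. For Ly6c2 it was 393 of 2733 windows (14.4%) and for Ly6a 246 of 1297, mostly windows shared with Ly6c1. For Ly6i the share was 4.76%, for Ifitm3 63 of 629 windows, 29 of them shared with Gm7676, and 0 windows were shared by Ly6e, Plac8, Ifitm6 or Hp. RSEM, named in the submitters' processing notes, divides reads that match several genes by a model, so the split between Ly6c1 and Ly6c2 is uncertain. The read length is not given in the sources used here.

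The promoters of the Ly6C pair and of the Ifitm pair are shown because the members of each pair are neighbours that differed in level. Each line is the RefSeq window from 250 bases before to 50 bases after the transcript start, on the minus strand of GRCm38.p6, printed 5′ to 3′. Capitals mark matches, on either strand, to 4 motifs: GAAANNGAAA (the interferon-stimulated response element, ISRE), TTCNNNGAA (the interferon-gamma activated site, GAS), GAGGAAGT (PU.1, a transcription factor of myeloid cells) and TTGCNNAA (C/EBP, another such factor family). Ly6c1 is at chr15:75048788-75049087, Ly6c2 at chr15:75111922-75112221, Ifitm3 at chr7:141010695-141010994 and Ifitm6 at chr7:141016843-141017142.
Ly6c1: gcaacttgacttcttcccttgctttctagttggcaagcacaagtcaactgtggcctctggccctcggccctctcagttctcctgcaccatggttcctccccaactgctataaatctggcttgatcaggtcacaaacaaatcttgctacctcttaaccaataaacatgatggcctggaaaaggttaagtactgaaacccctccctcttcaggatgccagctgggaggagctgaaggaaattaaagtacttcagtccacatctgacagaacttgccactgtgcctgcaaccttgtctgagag
Ly6c2: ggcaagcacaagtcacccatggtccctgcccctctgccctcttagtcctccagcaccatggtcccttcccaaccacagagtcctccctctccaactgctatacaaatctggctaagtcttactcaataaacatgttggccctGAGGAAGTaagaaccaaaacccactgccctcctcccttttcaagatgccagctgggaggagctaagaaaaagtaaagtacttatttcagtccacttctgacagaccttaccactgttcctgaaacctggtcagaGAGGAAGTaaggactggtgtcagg
Ifitm3: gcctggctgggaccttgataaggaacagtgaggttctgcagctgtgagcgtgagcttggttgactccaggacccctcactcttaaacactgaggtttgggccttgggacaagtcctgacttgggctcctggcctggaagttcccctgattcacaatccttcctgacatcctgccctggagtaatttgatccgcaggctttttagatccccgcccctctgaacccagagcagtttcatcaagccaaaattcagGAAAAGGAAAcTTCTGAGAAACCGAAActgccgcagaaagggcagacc
Ifitm6: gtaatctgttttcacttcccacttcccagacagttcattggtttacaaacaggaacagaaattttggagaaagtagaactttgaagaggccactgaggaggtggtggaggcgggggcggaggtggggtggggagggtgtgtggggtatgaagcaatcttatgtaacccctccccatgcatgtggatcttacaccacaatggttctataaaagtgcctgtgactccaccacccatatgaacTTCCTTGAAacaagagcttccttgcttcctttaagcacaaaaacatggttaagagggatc

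The Ly6c1 and Ly6c2 windows agreed at 78.2% of 266 aligned bases. Counted from 0 at the first transcribed base, PU.1 matches began at -108 and 26 in the Ly6c2 window, and the Ly6c1 window held no complete match. A second RefSeq start of Ly6c1, whose window overlaps the first, had a PU.1 match at -127. The first Ly6c1 window ends inside this match, so the match is cut off in the line printed. The bases just after this match also stand just after the Ly6c2 match at 26. For Plac8 1 of 2 windows held a C/EBP match, at -12. The Ifitm3 window held ISRE matches at 2 and 19 and a GAS match at 13 that overlaps the second ISRE, and the Ifitm6 window held a GAS match at -10. Over 32851 promoter windows of this length, 3.44% held the ISRE, 8.30% the GAS, 3.20% the PU.1 and 10.8% the C/EBP letters. A match is a run of letters and not a measured binding site.

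Every one of the 9 genes was highest at day 3, and in each the 3 day 3 libraries lay above all 9 others. Of all genes tested, 14.9% (1917) had that pattern. The fold over day 0, from the group means, ran from 2.51 for Ly6c1 to 60.8 for Ly6c2. Ly6a rose 34.3-fold, Plac8 41.1-fold, Hp 25.3-fold, Ly6i 12.2-fold, Ifitm6 6.08-fold, Ly6e 4.23-fold and Ifitm3 3.77-fold. All 7 genes that were not sorted on passed the test as higher at day 3, where 44.2% of all genes passed in either direction and 22.1% as higher. Their median log2 change was 2.54, beside -0.02 over all genes. In bulk RNA, fewer cells of a type and less RNA per cell cannot be told apart, and this holds for every level below.

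**Figure D1:**
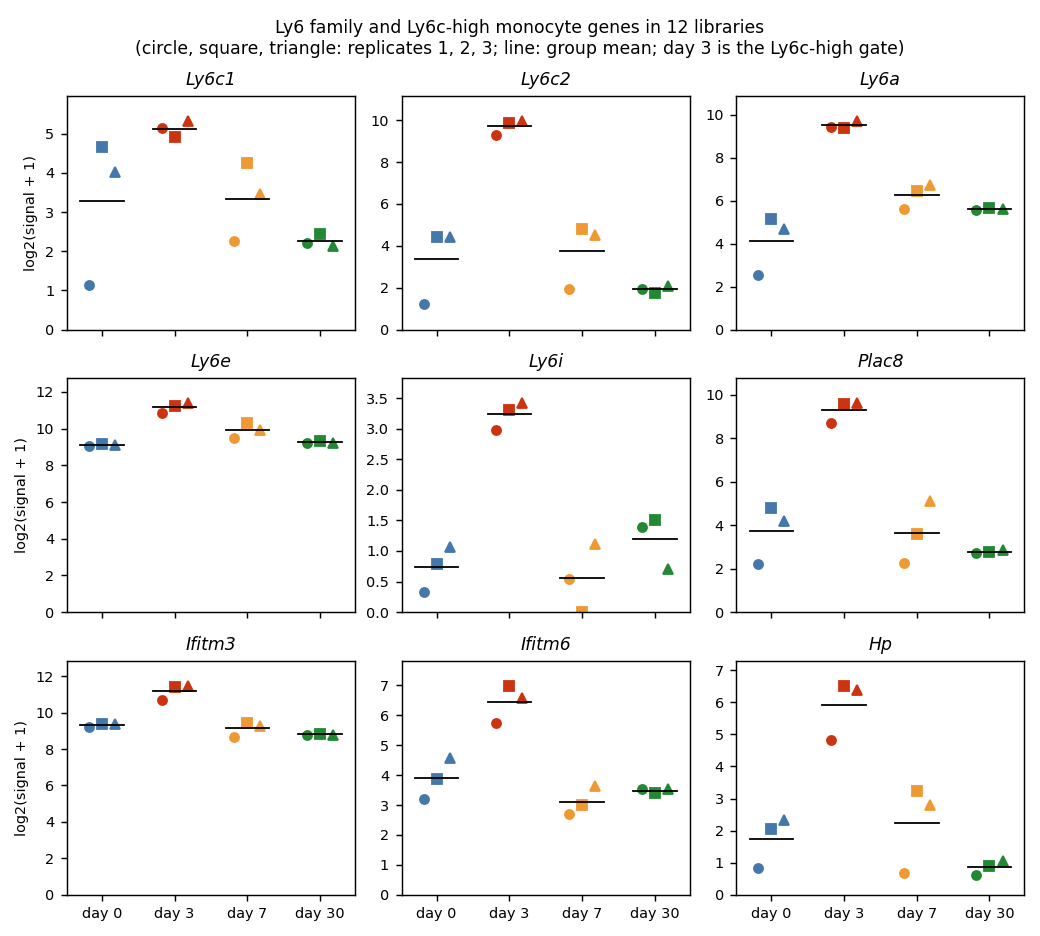
Each panel plots 1 gene: the vertical axis is log2(signal + 1) from 0, the horizontal axis the 4 groups, each point 1 library and each line the mean of the group's log2 values. Day 3 points lie above all others in each panel, while the day 0 and day 7 points of Ly6c1, Ly6c2, Plac8 and Hp are spread widely and their day 30 points sit close together.

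Ly6c2 was the gene with the largest difference. It had signals of 620, 933 and 1004 at day 3. At day 0 the libraries had 1.32, 20.7 and 20.1, at day 7 2.88, 26.7 and 22.2, and at day 30 2.81, 2.40 and 3.23. The mean ± SD was 852 ± 205 at day 3, 14.03 ± 11.01 at day 0, 17.3 ± 12.7 at day 7 and 2.81 ± 0.415 at day 30 (n = 3 each). The Ly6clow groups therefore held 1.65%, 2.02% and 0.330% of the day 3 mean at days 0, 7 and 30. On the log2 scale day 3 stood 6.36 ± 0.74 above day 0, and 5.29 above it without the first day 0 library. From day 3 the difference was -5.95 ± 0.74 at day 7, or -5.04 without the first day 7 library, and -7.78 ± 0.74 at day 30. The gate chose cells by this antigen, and these differences describe the sort.

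Ly6c1 showed a much smaller difference between the gates. Its signals at day 3 were 34.5, 29.0 and 39.3. At day 0 they were 1.19, 24.3 and 15.4, at day 7 3.78, 17.9 and 10.1, and at day 30 3.67, 4.38 and 3.36. Day 0 and day 7 held 39.8% and 30.9% of the day 3 mean and day 30 11.1%. The log2 difference of day 3 from day 0 was 1.85 ± 0.66, and 0.78 without the first day 0 library, the lowest of that group, or 2.55 without the second, the highest. For day 7 and day 30 against day 3 it was -1.81 ± 0.66 and -2.87 ± 0.66.

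The ratio of Ly6c2 to Ly6c1 signal separated the gates. In the day 3 libraries it was 17.97, 32.1 and 25.5. The Ly6clow libraries had 1.11, 0.849 and 1.31 at day 0, 0.760, 1.49 and 2.20 at day 7, and 0.766, 0.548 and 0.962 at day 30. The longest annotated protein-coding transcripts are 822 and 844 bases long, so the ratio per length is nearly the same. At day 3 Ly6c2 had 1037 signal per kb of transcript and Ly6c1 40.6, and at day 0 17.1 and 16.2. Reads shared by the pair, 379 windows of 50 bases, could move this ratio in any library.

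Within the Ly6clow gate, neither gene of the antigen passed the test in any comparison. These groups were all sorted as low in the antigen, so a difference in cells with more of it could not be seen here. For day 7 against day 0, Ly6c2 had a log2 change of 0.41 ± 0.74 (adjusted p = 0.725) and Ly6c1 of 0.05 ± 0.66 (adjusted p = 0.969). For day 30 against day 0 the values were -1.42 ± 0.74 (adjusted p = 0.272) and -1.02 ± 0.66 (adjusted p = 0.380). The first day 0 library, at 1.32 and 1.19, lay below all day 30 libraries, and the other 2 lay far above them. Without it Ly6c2 was -2.49 (adjusted p = 0.0151) and Ly6c1 -2.09 (adjusted p = 0.00598), so these calls rest on 1 library. For day 30 against day 7, Ly6c2 had -1.84 ± 0.74 (adjusted p = 0.0603) and Ly6c1 -1.07 ± 0.66 (adjusted p = 0.207). The edgeR quasi-likelihood test and DESeq2 on recovered reads called Ly6c2 lower there, at -2.58 (adjusted p = 0.0138) and -2.62 (adjusted p = 0.0150).

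The genes with profiles closest to the Ly6C pair were not the same. Likeness was measured as the root mean square difference of mean-centred log2 values over the 12 libraries, among 7017 genes. Closest to Ly6c1 were Flt1 (0.36) and Kdr (0.45), receptors for VEGF, and then Gsr, glutathione reductase (0.75), where the median over candidates was 1.39. Among those closest to Ly6c2 were Vcan, the proteoglycan versican (0.92), and Cd177, a surface protein of granulocytes (1.196), where the median was 3.12.

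Flt1 was picked as closest to Ly6c1 in these same 12 libraries, so a shared course follows from that choice. Within a group, the order of the libraries matched that of Ly6c1 at days 0 and 7 and differed at days 3 and 30. The signals of Flt1 were 1.45, 27.7 and 24.8 at day 0, 23.8, 29.9 and 39.0 at day 3, 4.996, 11.3 and 8.18 at day 7, and 3.59, 5.79 and 4.75 at day 30. Both genes were lowest in the first day 0 library and high in the other 2. The sum of 14 endothelial markers was 59.1, 298 and 234 at day 0, 155, 153 and 192 at day 3, 111, 266 and 144 at day 7, and 78.5, 75.3 and 74.1 at day 30. Kdr, named above as close to Ly6c1, is 1 of the 14. It gave 66.1, 60.4 and 93.3 of the day 3 sums and 0.924, 37.2 and 24.4 of those at day 0. Of these 14 markers, 2 were called higher at day 3 than at day 0 (Kdr and Rgcc), 3 lower (Aqp1, Tek and Eng) and 9 were not called. Ly6c1 and Ly6a are also expressed by mouse endothelium, and the part of such cells in the Ly6c1 and Ly6a values was not tested.

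**Figure D2:**
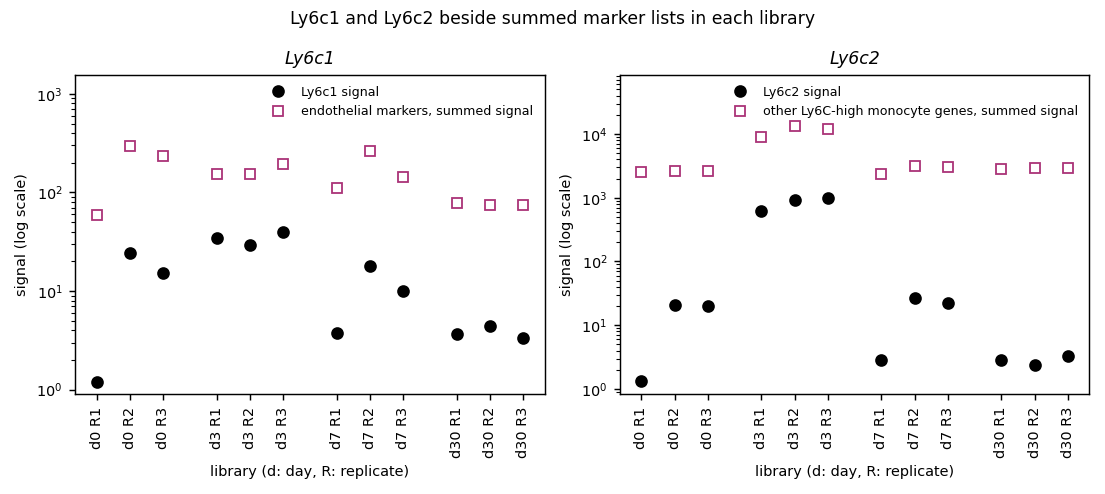
For each of the 12 libraries along the horizontal axis, filled circles give the signal of Ly6c1 (left) or Ly6c2 (right) on a log axis, and open squares the summed signal of the endothelial markers (left) or of the other Ly6C-high monocyte genes (right). Ly6c1 and the endothelial sum are both lowest in the first day 0 library. Ly6c1 is highest at day 3, and the endothelial sum in the second day 0 library. Ly6c2 and the Ly6C-high sum are both highest in the 3 day 3 libraries. The Ly6C-high sum includes F13a1, with a mean of 1377 at day 0 against 230 at day 3.

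Ly6a encodes Sca-1, a marker of blood stem cells that interferons induce in many cell types. Its signals were 676, 673 and 840.3 at day 3. At day 0 they were 4.88, 34.7 and 24.3, at day 7 47.2, 85.0 and 106, and at day 30 45.9, 49.7 and 47.2. Day 7 lay above day 0 in every library, and so did day 30. The rise from day 0 to day 3 was 5.38 ± 0.46 (adjusted p = 2.29e-07), or 4.60 without the first day 0 library, and the fall to day 7 was -3.25 ± 0.46 (adjusted p = 5.33e-05). Ly6a differed from the Ly6C pair within the Ly6clow gate: at day 7 it had 10.9% of its day 3 mean, against 2.92% at day 0.

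That change of Ly6a between day 0 and day 7 passed the test, at 2.13 ± 0.46 (adjusted p = 0.00473, limma), 3.74-fold in the means. Without the first day 0 library, the lowest at 4.88, it was 1.35 (adjusted p = 0.00290). It passed under all 25 alternative settings run. At day 30 Ly6a was 2.24-fold the day 0 mean, which did not pass (1.48 ± 0.46, adjusted p = 0.0729), and without the first day 0 library it was 0.69 (adjusted p = 0.130). The genes closest in profile to Ly6a were Helz2 (0.52), Sirpb1c (0.61) and Cfb, complement factor B (0.62), with a median of 2.05 over candidates.

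Ly6e, another interferon-induced Ly6 gene, was abundant in every library. The signals were 531, 563 and 546 at day 0, 1879, 2394 and 2671 at day 3, 726, 1249 and 988 at day 7, and 600, 646 and 596 at day 30. The groups of day 0 and day 30 lay next to each other, day 7 above both and day 3 above all. Day 3 exceeded day 0 by 2.07 ± 0.19 (adjusted p = 4.88e-07). The day 7 level was 0.82 ± 0.19 above day 0 (adjusted p = 0.00749), and this passed under all 25 alternatives.

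By day 30 Ly6e had fallen by 0.65 ± 0.19 on the log2 scale from day 7 (adjusted p = 0.0148). It was the only one of the 9 genes that passed there in limma, and the means of Ly6c2, Ly6c1, Ly6a, Plac8, Ifitm3 and Hp were also lower at day 30. Without the first or the third day 30 library this missed the threshold, with log2 changes of -0.64 (adjusted p = 0.0516) and -0.63 (adjusted p = 0.0545). With the 3 day 30 libraries averaged to 1 sample the adjusted p was 0.211. Against day 0 the day 30 level was 0.17 ± 0.19 higher (adjusted p = 0.651). Ly6e had its closest profiles in Glrx, Tlr9 and Myd88 (0.17 each, median 0.87); Tlr9 and Myd88 are a receptor for microbial DNA and its adaptor.

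Ly6i was the scarcest Ly6 gene of the set and was followed by few reads. Its signals were 6.90, 8.85 and 9.66 at day 3, 0.264, 0.734 and 1.09 at day 0, 0.454, 0 and 1.17 at day 7, and 1.64, 1.84 and 0.634 at day 30. These rest on 220 reads in the day 3 group and on 15, 11 and 44 in the others, and where none was seen up to 3 could have been missed, which is 0.347 in signal. Day 3 stood above day 0 by 2.50 ± 0.33 (adjusted p = 1.93e-05). The size moves with the pseudocount, 3.58 with 0.1 and 1.24 with 5, while the call was kept. Between the Ly6clow groups the libraries of Ly6i overlapped in all comparisons and none passed. Its closest profiles were Pde7b (0.24), Trim30d (0.26) and Ifih1 (0.26), with a median of 1.13, and Ifih1 is a sensor of viral RNA.

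Per kb of transcript, the 5 Ly6 genes covered a wide range in the day 3 cells. Ly6c2 had 1037 signal per kb and Ly6e 1015, Ly6a 764, Ly6c1 40.6 and Ly6i 7.33. Before injury, in the Ly6clow gate, Ly6e stood at 240 per kb, and Ly6a, Ly6c2 and Ly6c1 at 22.3, 17.1 and 16.2. So Ly6e was the leading Ly6 gene of the Ly6clow cells at day 0. Per kb, Ly6c2 was level with Ly6e in the day 3 cells. The length used was the longest annotated protein-coding transcript, 2281 bases for Ly6e and 822 for Ly6c2. Undivided, their day 3 mean signals were 2315 and 852, so being level rests on that choice of length. Among tested genes, Ly6c2 had a percentile of 99.8 per kb at day 3 and of 42.2 at day 30.

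Of 34 other genes of the Ly6 and uPAR family, 8 were in the table and 5 were tested. Plaur, the urokinase receptor and itself a three-finger protein, was the 1 called higher at day 3 than at day 0 (3.66 ± 0.28, adjusted p = 7.76e-08). It stayed above day 0 at day 7 (1.16 ± 0.28, adjusted p = 0.0101) and at day 30 (1.37, adjusted p = 0.0106). Cd59a, an inhibitor of the complement membrane attack complex, was called higher at day 7 than at day 0 (1.34 ± 0.41, adjusted p = 0.0303) at a mean signal of 3.48 against 0.653. Cd59b, Lynx1 and Gpihbp1 were called in none of the comparisons with day 0.

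**Figure D3:**
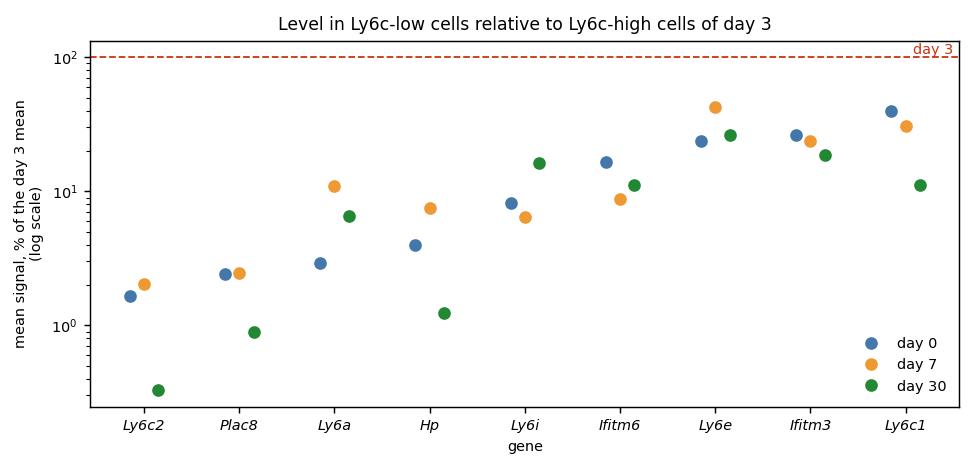
The vertical axis, on a log scale, gives the mean signal of each gene at days 0, 7 and 30 as a percentage of its day 3 mean (dashed line), with the genes along the horizontal axis and 1 point per group. Ly6c2 lies lowest, at 0.330% to 2.02%, and Ly6e, at 23.6% to 42.7%, Ifitm3 and Ly6c1, at 11.1% to 39.8%, lie among the highest.

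Plac8, a small cysteine-rich protein of myeloid cells, came next to Ly6c2 in pattern. Its signals were 408, 767 and 777 at day 3, 3.70, 26.8 and 17.02 at day 0, 3.78, 10.98 and 33.2 at day 7, and 5.54, 5.79 and 6.15 at day 30. The day 0 and day 7 libraries overlapped each other and the day 30 libraries. Day 3 exceeded day 0 by 5.55 ± 0.61 (adjusted p = 3.00e-06), or by 4.80 without the first day 0 library, and day 30 lay below day 3 by -6.52 ± 0.61 (adjusted p = 8.40e-07). Day 7 and day 0 differed by -0.09 ± 0.61 (adjusted p = 0.934).

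Plac8 and Ly6c2 differed in profile by 0.68, the smallest distance of Ly6c2 to another of the 9 genes. Among the genes closest to Plac8 were Vcan (0.87) and F10, coagulation factor X (0.99), with a median of 2.69 over candidates. Vcan had signals of 573, 1045 and 774 at day 3, 1.58, 14.2 and 19.7 at day 0, 22.7, 34.0 and 26.7 at day 7, and 9.05 to 10.97 at day 30. Both genes were lowest in the first day 0 library among the 3 of that day.

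Hp encodes haptoglobin, the plasma protein that binds free haemoglobin and that myeloid cells also store. Its signals at day 3 were 27.5, 90.6 and 82.1. They were 0.792, 3.15 and 3.98 at day 0, 0.606, 8.32 and 5.99 at day 7, and 0.546, 0.848 and 1.08 at day 30. Day 3 exceeded day 0 by 4.17 ± 0.58 (adjusted p = 2.88e-05), with the first day 3 library lower than the other 2. Day 30 was below day 7 by -1.38 ± 0.58 in limma (adjusted p = 0.0684), and the edgeR and DESeq2 tests on reads called this fall, at -2.57 (adjusted p = 0.0151) and -2.60 (adjusted p = 0.0129). The day 30 libraries hold 30 reads of Hp in all, against 117 at day 7 and 1674 at day 3.

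Cd163, the receptor that takes up haptoglobin bound to haemoglobin, moved against Hp. Its signals were 510, 384 and 343 at day 0, 6.04, 1.89 and 1.59 at day 3, 55.6, 23.4 and 52.1 at day 7, and 231, 219 and 227 at day 30. From day 0 to day 3 it fell by 6.76 on the log2 scale (SE 0.34, adjusted p = 7.01e-10), and no group overlapped another. Of 10 tested genes of haptoglobin, heme and acute-phase handling other than Hp, 6 rose at day 3 over day 0 and 4 fell, with a median of 2.04. The rises included Slpi, a protease inhibitor (4.15 ± 0.40), and Saa3, serum amyloid A3 (3.33 ± 0.40), while Slc40a1, the iron exporter ferroportin, fell by 3.17 (SE 0.27).

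Closest to Hp in profile were Cd177 (0.41), F10 (0.49) and Met (0.64), with a median of 2.05. Haptoglobin and Cd177 are also made by neutrophils. The sum of the neutrophil markers was 190 to 247 at day 3, 53.1 to 98.2 at day 0, 97.8 to 152 at day 7 and 60.4 to 64.7 at day 30. Csf3r, the receptor for granulocyte colony-stimulating factor, made up most of it, at 166 ± 17.8 at day 3 and 50.4 ± 3.77 at day 0. Of 12 listed markers 6 were in the table and 5 were tested, and 3 of these were called higher at day 3 than at day 0. S100a8 and S100a9, the most abundant neutrophil transcripts, were at 17.4 ± 13.1 and 19.3 ± 15.2 at day 3 and at 8.73 ± 8.13 and 8.44 ± 8.91 at day 0, and were not called. The part of neutrophil RNA in the Hp values was not tested.

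Ifitm3, a membrane protein that blocks the entry of enveloped viruses, was the most abundant of the 9 genes per kb in both gates. It had 936 signal per kb at day 0 and 3532 at day 3. Its signals were 593, 653 and 658 at day 0, 1682, 2665 and 2837 at day 3, 408, 698 and 614 at day 7, and 440, 456 and 440 at day 30. Day 3 exceeded day 0 by 1.88 ± 0.21 (adjusted p = 4.14e-06). The day 30 libraries lay below all day 0 libraries, but the change of -0.51 ± 0.21 did not pass (adjusted p = 0.175). With only these 2 groups in the fit it did (adjusted p = 0.00290).

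Ifitm6, its neighbour, was lower by far and changed more between the gates. Its signals were 52.3, 126 and 94.4 at day 3, 8.32, 13.7 and 22.8 at day 0, 5.45, 6.94 and 11.4 at day 7, and 10.5, 9.47 and 10.5 at day 30. Day 3 exceeded day 0 by 2.54 ± 0.34 (adjusted p = 2.30e-05), and day 7 lay below day 3 by -3.33 ± 0.34 (adjusted p = 2.59e-06). The mean of Ifitm6 was lowest at day 7, where 2 of the 3 libraries lay below all libraries of day 0 and day 30 and the third lay among those of day 0. For day 7 against day 0 the value was -0.79 ± 0.34 (adjusted p = 0.112), and without the first day 0 library -1.12 (adjusted p = 0.0338).

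Of 3 further Ifitm genes tested, 1 was called at day 3 against day 0. Ifitm1 rose by 2.29 ± 0.34 (adjusted p = 5.73e-05), from a mean of 4.01 ± 0.833 to 24.7 ± 10.3. Ifitm2, a close relative of Ifitm3, had means of 504 ± 40.8 and 550 ± 205 and a change of 0.05 ± 0.25 (adjusted p = 0.885). Ifitm5 had means of 1.93 ± 1.05 at day 0 and 1.62 ± 0.757 at day 3, with a change of -0.14 ± 0.32 (adjusted p = 0.754). So within the family Ifitm3, Ifitm6 and Ifitm1 were called higher in the day 3 cells. For Ifitm2 and Ifitm5 no difference was detected.

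Interferon-stimulated genes rose in the same comparison as the Ly6 and Ifitm genes. All 24 listed genes were called higher at day 3 than at day 0, with a median of 3.84, led by Rsad2 (6.01 ± 0.23), Oasl1 (5.89) and Ifit2 (5.87). At day 7, 16 of 24 were higher than at day 0 and 1, Oas2, was lower, with a median of 0.77. At day 30, 9 of 24 were higher and 0 lower than at day 0. The summed signal of the list was 826 to 890.0 at day 0, 7578 to 12477 at day 3, 1231 to 1467 at day 7 and 1092 to 1128 at day 30. Ly6a and Ly6e followed that order of the groups. Ifitm3 and Ifitm6 did not, with day 7 and day 30 means below day 0. Among the closest profiles were Oas1g (0.22) for Ifitm3, after Gsr (0.17), and Trim30c (0.42) for Ifitm6.

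The 26 other Ly6C-high monocyte genes moved with the 9. At day 3 against day 0, 24 were higher and 2 lower, with a median of 3.31. Thbs1, thrombospondin, had the largest rise (7.52 ± 0.25), then Vcan (6.38) and Chi3l3 (5.97), a chitinase-like protein. The 2 that fell were F13a1 and Lyz1. The summed signal of the 26 was 9108 to 13527 at day 3 and 2346 to 3204 in the Ly6clow libraries. F13a1 weighs on the Ly6clow sums, with means of 1377 at day 0, 288 at day 7 and 778 at day 30, against 230 at day 3. Of 14 resident cardiac macrophage genes, 13 were lower at day 3, led by Lyve1 (-7.48 ± 0.36), a hyaluronan receptor, and Siglec1 was the 1 that rose.

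Compared over the 3 groups of 1 gate, the day 7 cells differed from the day 0 cells in 2 of the 9 genes, Ly6a and Ly6e, both higher. Over all genes 21.6% passed in that comparison, 11.4% as higher. The median of the 9 was 0.05, beside -0.02 over all genes. In 12 of the 26 other Ly6C-high genes a rise passed and in 2 a fall, with a median of 0.67. The largest of these were Fn1, fibronectin (3.16), Clec4d (2.71) and Thbs1 (2.34). In the same libraries 10 of 14 resident macrophage genes were lower and 1 was higher. Ly6c2, Plac8, Hp and Ifitm6 did not pass in that comparison.

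Fibroblast markers were also higher at day 7. Of 13, all tested, 9 were called higher than at day 0 and 0 lower, with a median of 2.01, led by Col1a1 (5.48 ± 0.55), Col1a2 (4.89 ± 0.48) and Postn, periostin (4.80 ± 0.30). Their summed signal was 98.2 to 241 at day 0, 678 to 2498 at day 7, 382 to 486 at day 3 and 237 to 253 at day 30. Of the list, 1 marker was at 0 in the second day 0 library, and none was at 0 in any other library of the 4 groups. Cardiac fibroblasts also express Ly6a. The part of fibroblast RNA in the rise of Ly6a, Ly6e, Fn1 and the other Ly6C-high genes was not tested. Without the second day 7 library, the one with the highest sum, Ly6a was at 2.05 (adjusted p = 0.0181) and Ly6e at 0.63 (adjusted p = 0.0184). The day 7 libraries kept had fibroblast sums of 925 and 678, above all of day 0, so these values do not measure the fibroblast part.

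**Figure D4:**
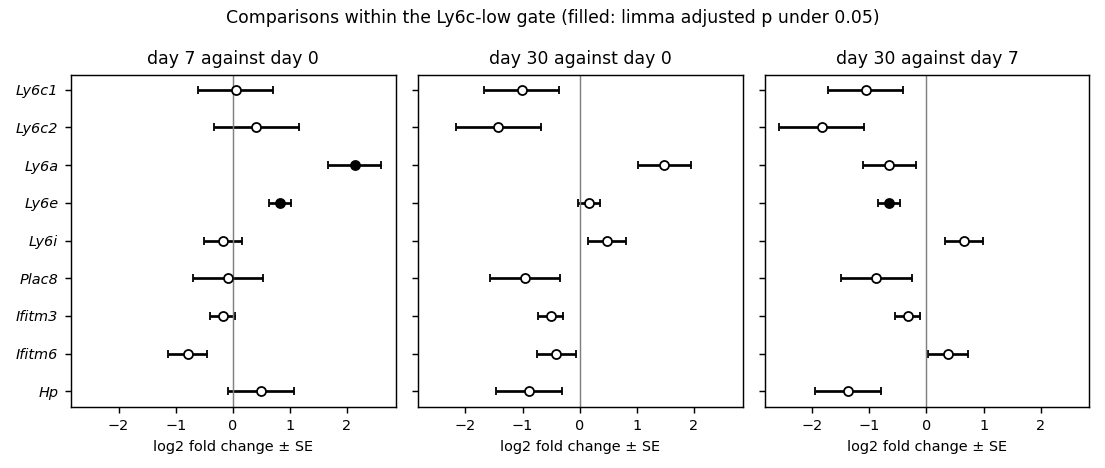
The 3 panels give the log2 fold change of each gene for day 7 and for day 30 from day 0 and for day 30 from day 7, with bars of 1 standard error pooled over the 12 libraries, and filled points passed the test. Filled points are Ly6a and Ly6e in the first panel and Ly6e in the last.

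At day 30 none of the 9 genes passed against day 0 in limma, the edgeR test or DESeq2, where 6.18% of all genes passed in limma. Before adjustment, 2 of them, Ly6a and Ifitm3, had a limma p under 0.05. The libraries of 3 genes did not overlap, Ly6a and Ly6e above and Ifitm3 below day 0, and 40.8% of all genes had no overlap in this comparison. Day 30 against day 7 called 1 of the 9, Ly6e, where 39.6% of all genes passed, 19.9% as lower. In Ly6c2, Plac8 and Hp the first day 7 library lay within or below the range of the day 30 libraries and the other 2 lay above it. In the other Ly6C-high list 5 rose and 9 fell between these times, with a median of -0.52.

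From day 3 to the later times all 7 genes that were not sorted on fell. At day 7 46.8% of all genes passed and 23.5% were lower, and at day 30 39.4% passed and 20.3% were lower. The falls at day 30 ran from -1.90 for Ly6e (adjusted p = 1.73e-06) to -6.52 for Plac8. At day 7 they ran from -1.25 for Ly6e (adjusted p = 0.000101) to -5.64 for Plac8 (adjusted p = 4.18e-06), which was -4.95 without the first and -6.37 without the third day 7 library. These comparisons share the day 3 libraries with each other and with day 3 against day 0.

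The order of the groups by mean signal differed between genes below day 3. Ly6a and Ly6e ran day 3, day 7, day 30, day 0. Ly6c2, Plac8 and Hp ran day 3, day 7, day 0, day 30, and Ly6c1 and Ifitm3 day 3, day 0, day 7, day 30. Below day 3, the only neighbours in these orders that passed the test were day 7 and day 30 of Ly6e. Ifitm6 ran day 3, day 0, day 30, day 7 and Ly6i day 3, day 30, day 0, day 7, with no neighbours below day 3 that passed.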

How the data were processed

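RNA was measured by sequencing of total RNA in 12 libraries. Per the submitters' processing notes, the tools were cutadapt 1.3, RSEM 1.2.20 and edgeR 3.14.0 with the genome build GRCm38. The deposited signal is a normalised read count on a linear scale, and the authors' log2 values in the same table equal its log2, with values below 1 set to 0, in 173520 of 173520 cells within 1e-09. The log2 columns were used for that check only. Every signal was a whole multiple of 1 step per library, and 100% of values gave whole reads within 0.02 reads. Where no read was seen, up to 3 could have been missed, which is 0.190 to 0.543 in signal by library and covers counting error only.

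Log2(signal + 1) of the 12879 genes whose mean signal was 1 or more was fitted with limma 3.58.1 in R 4.3.3 (trend, 4 group means, 8 residual degrees of freedom, two-sided), with Benjamini-Hochberg adjustment over all genes tested in each of 6 comparisons. A fold change on this scale understates the change of low genes. Alternatives were edgeR 4.0.16 and DESeq2 1.42.0 on recovered reads, beside other pseudocounts, filters, scalings, a replicate block and leaving out libraries. The fit was tested on simulated data. The p-values measure the spread between libraries that the labels call biological replicates.

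The 9 genes and the 14 gene lists (214 entries, 169 found) were chosen with earlier results of these data known, and the lists were not tested as sets. Named genes were the 9, the 3 genes closest in profile to each (mean signal of at least 10), up to 3 called genes of a list with the largest change in each direction, and Cx3cr1, Ccr2 and Cd163. 1 gene that this rule names is not reported here. Other genes named were chosen after their values were seen. Identifiers were looked up in GENCODE M21, which held 14232 (98.4%). Promoters came from RefSeq (GRCm38.p6), which matched 5 of the 9 genes.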

Additional observations from a re-analysis of the deposited data

How the results depend on the processing

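Over 25 alternatives, 1290 of 1344 values of the 9 genes were counted as unchanged. For tested values this means the same direction and the same side of the threshold. For Ly6c1 and Ly6c2 against day 3, which have no test, the threshold was not used. There it means the same direction and a shift smaller than the larger SD of the 2 groups on the log2 scale. The number of the 9 (or 7) genes past the test stayed within 1.5 times for day 3 against day 0, day 7 against day 0 and both comparisons of later times with day 3, where Ly6i drops out under a mean of at least 5. For day 30 against day 0 (0 genes), the count was 1 with the replicate block (Ly6a) or with the compared groups alone (Ifitm3), 3 without the first day 0 and second day 7 libraries together, and 0 to 2 with any 1 library left out. For day 30 against day 7 (1 gene), it was 2 with quantile normalisation, 3 with the replicate block, 2 without both libraries together, 0 with day 30 averaged to 1 sample, 3 with edgeR, 3 with DESeq2 and 0 to 5 with any 1 library left out. The cause was not tested.

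All reversals were in day 7 against day 0, in genes that did not pass. Ly6c1 was -0.095 with a pseudocount of 5, -0.047 with quantile normalisation, -0.37 with edgeR and with DESeq2, -1.48 (adjusted p = 0.00605) without both libraries, and -1.03 to 0.74 with any 1 library left out. Ly6c2 was -1.17 without both and -0.66 to 1.31 with any 1 left out. Hp was -0.44 without both. With any 1 library left out, Plac8 ran from -0.84 to 0.60, Ly6i from -0.46 to 0.097 and Ifitm3 from -0.34 to 0.046.

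No pairing of the libraries by replicate number was seen. Deviations of same-numbered libraries correlated at a median r of 0.0049 in 18 pairs (-0.0831 to 0.210). Those of others correlated at -0.0069 in 36 (-0.231 to 0.195). With 3 libraries a group, a weak pairing could be missed. On recovered reads the edgeR test called 5610 genes for day 3 against day 0, 2595 for day 7 against day 0 and 755 for day 30 against day 0 (5698, 2782 and 796 with limma). Over all genes, day 30 against day 0 called 796, but 13 with day 30 averaged, 2674 with the compared groups alone, 2513 without both libraries, 1328 with DESeq2 and 235 to 1990 with 1 library left out. Day 7 against day 0 called 2782, but 1158 with the compared groups alone and 1741 with day 30 averaged. With day 30 averaged, day 30 against day 3 called 2019 of 5079 and day 30 against day 7 called 824 of 5103. Few reads limit Ly6i at days 0, 7 and 30 and Hp at day 30. With a pseudocount of 5, the changes of low genes were smaller, as for Hp at day 3 against day 0 (3.11 against 4.17).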
